A study of Mus musculus with 4 samples.

Results

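Fibroblasts and related stromal cells build the fibrous scaffold around cells, and the transcripts described here are the ones they are known for: collagen chains, the proteoglycans and glycoproteins bound to them, the enzymes that trim and cross-link collagen, and the receptors and transcription factors that mark the mesenchymal lineage. A list of 42 such genes was followed in cultured mouse bone marrow-derived macrophages (BMDM), a cell type known to make fibronectin and thrombospondin 1 itself. The members were found by symbol in the platform annotation of the array: 40 of the 42 had a probe set listed with that symbol alone, out of 22180 genes measured in this way. Fbn1 (fibrillin 1) had no probe set listed by name, and both probe sets of Loxl2 (a lysyl oxidase) also carried a second symbol, so these 2 were left out of all counts.

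Macrophages had been grown from marrow of Hilpda knockout mice, written HilpdaΔMΦ and abbreviated KO, and of littermates with floxed, undeleted Hilpda (Hilpdaflox/flox, abbreviated WT), both between 8 and 12 weeks old. All 4 groups (KO 12 h, WT 12 h, KO 24 h and WT 24 h) had been differentiated for 7 days with L929-conditioned medium, L929 being a mouse fibroblast line, and then exposed for 12 or 24 h to 600 µM fatty acid bound to albumin, 1 part palmitate to 2 parts oleate. Each group was 1 array hybridised with the pooled RNA of 3 samples, so no group has a replicate error. The labels do not say whether the 3 came from separate animals, which promoter drives the Cre or which part of Hilpda is deleted. Every array is of fatty acid-loaded cells. Hilpda itself, which encodes a small lipid droplet protein that inhibits adipose triglyceride lipase, had a log2 level of 5.41 in KO and 5.93 in WT at 12 h, and of 5.27 in KO and 5.47 in WT at 24 h. Whether its probes lie in the deleted part is not known, so these levels do not check the genotype.

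Collagen is made as a procollagen. Its chains are folded in the endoplasmic reticulum with help of the chaperone HSP47 (Serpinh1). Its C-terminal end is trimmed outside the cell by BMP1 with the enhancer protein encoded by Pcolce. The fibrils are joined by lysyl oxidases such as Lox and Loxl1. Small leucine-rich proteoglycans coat the fibrils, SPARC binds collagen, and fibronectin and periostin connect the fibrils to cells. Marrow also holds stromal cells that make these proteins.

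Upstream sequences of 4 members are shown, 3 that were lower in KO at both times and 1 that was not, so that the letters before their starts can be set beside their values. Of the 42 listed genes, 26 had an entry in the RefSeq promoter table (mouse build GRCm38.p6). The 250 bases before the annotated start are given 5′ to 3′ on the gene's strand for the type I collagen gene Col1a2 (chr6:4505368-4505617, plus strand), for the SPARC gene Sparc (chr11:55420081-55420330, minus strand), for the periostin gene Postn (chr3:54359017-54359266, plus strand), and, as a member that did not lie lower in KO at 12 h, for Gas1 (chr13:60177536-60177785, minus strand). Capitals mark matches, on either strand, to the TATA motif TATAAA, the CCAAT box, the GC box GGGCGG and the SMAD-type motif CAGAC.
Col1a2: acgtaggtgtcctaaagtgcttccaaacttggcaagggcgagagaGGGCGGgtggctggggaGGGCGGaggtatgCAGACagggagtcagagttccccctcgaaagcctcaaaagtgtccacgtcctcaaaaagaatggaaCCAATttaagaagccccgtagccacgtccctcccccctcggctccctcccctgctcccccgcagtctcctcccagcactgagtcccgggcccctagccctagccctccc
Sparc: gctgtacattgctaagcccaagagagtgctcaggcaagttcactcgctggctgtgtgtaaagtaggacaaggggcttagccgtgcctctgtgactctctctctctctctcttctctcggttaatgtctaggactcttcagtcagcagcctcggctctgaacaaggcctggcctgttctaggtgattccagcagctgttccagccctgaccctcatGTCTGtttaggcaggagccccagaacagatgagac
Postn: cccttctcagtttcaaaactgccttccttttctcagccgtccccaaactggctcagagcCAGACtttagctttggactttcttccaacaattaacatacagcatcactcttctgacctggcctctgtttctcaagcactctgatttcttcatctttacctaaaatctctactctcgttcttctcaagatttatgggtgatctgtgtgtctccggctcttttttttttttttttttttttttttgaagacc
Gas1: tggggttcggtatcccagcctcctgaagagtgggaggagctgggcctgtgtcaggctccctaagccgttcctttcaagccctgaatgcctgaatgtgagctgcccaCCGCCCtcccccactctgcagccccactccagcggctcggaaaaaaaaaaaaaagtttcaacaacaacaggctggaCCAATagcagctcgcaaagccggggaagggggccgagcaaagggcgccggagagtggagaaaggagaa

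In these windows Col1a2 held 4 matches, with the CCAAT box starting 109 bases before the start and the GC boxes 205 and 188 bases before it. Sparc held a single CAGAC match on the other strand, and Postn a single one on its own strand. Gas1 held a CCAAT box and a GC box but no CAGAC. The 4 genes shown were picked by their values, so their contrast describes only them. Among other members, Twist1, Prrx1 and Col4a2 held CAGAC, with differences of 0.08, 0.03 and -0.01 at 12 h. Ogn, Nid1 and Bgn held none and were lower in KO at both times. Over the 26 members with a promoter, GGGCGG was found in 16 (61.5%), against 32.9% of the 27025 genes in the table. CAGAC was found in 14 of the 26 (53.8%, against 42.1%), CCAAT in 8 (30.8%, against 34.5%) and TATAAA in 4 (15.4%, against 13%). These matches are letters in a window, not binding sites, and the shares were not tested.

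Most collagen and stromal matrix transcripts were lower in KO than in WT macrophages at 12 h, by amounts that were mostly modest. Of the 40 measured members, 36 had a log2 difference (KO minus WT) below 0 and 4 above. Over all 22180 genes, 11127 were below 0 and 11034 above. The median difference was -0.35, against -0.00085 over all 22180 genes, whose central 95% ran from -0.50 to 0.49. By at least 1.5-fold, 7 members were lower, which is 17.5% of the 40 against 1.41% of all genes, and 0 were higher, against 1.42% of all genes. With 1 array per group these differences have no replicate check and were not tested. In bulk RNA fewer cells of a type cannot be told apart from less RNA per cell. The list was chosen with earlier results of these data known. Its shares against all genes, here and below, are therefore descriptions and not independent support.

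At 24 h the same side prevailed and the differences were larger. Of the 40 members, 38 were below 0 and 2 above, whereas of all 22180 genes 10870 were below and 11290 above. The median of the members was -0.57 against 0.0055 over all genes, whose central 95% ran from -0.61 to 0.59. By at least 1.5-fold, 19 members (47.5%) were lower in KO, against 2.81% of all genes, and 0 were higher, against 2.58%. No array enters both genotype differences. Both were below 0 for 34 of the 40 members (85.0%), against 25.4% of all genes. Lower by 1.5-fold at both times were 4 members, Postn, Bmp1, Pdgfra and Cd248, which is 10.0% against 0.153% of all genes. The members are brighter than the average gene, but among the 5181 genes with a mean log2 level from 4 to 7 the shares lower by 1.5-fold were 1.18% at 12 h and 3.18% at 24 h.

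**Figure D1:**
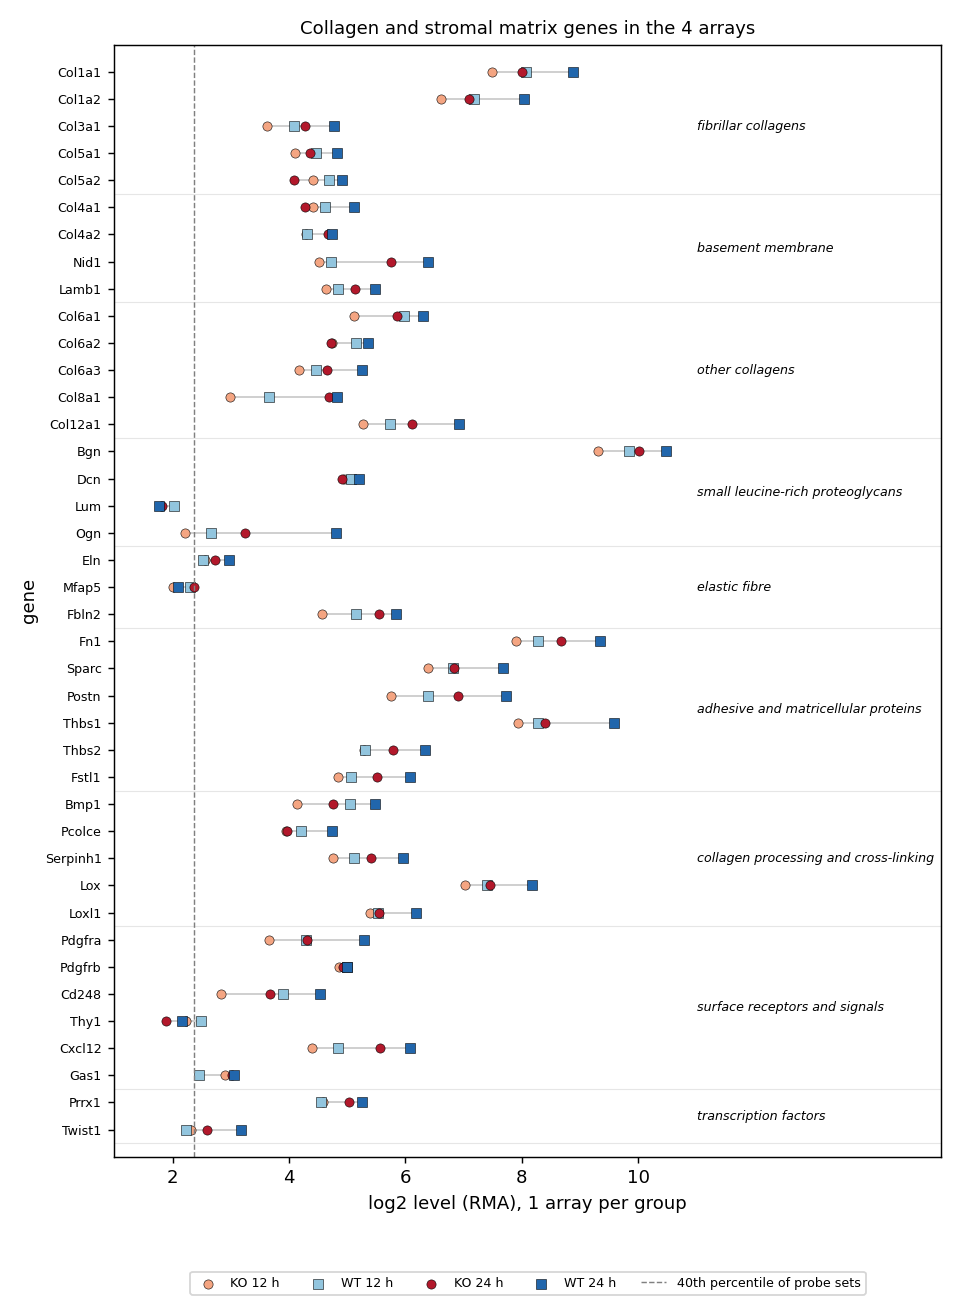
Log2 level (RMA, x axis) of each of the 40 measured genes (y axis, grouped by role) in the 4 arrays, with circles for KO and squares for WT, pale at 12 h and dark at 24 h; the dashed line is the 40th percentile of all probe sets (2.36). The WT 24 h square is the rightmost point for 36 of the 40 genes, and the KO 12 h circle the leftmost for 30. Both hold for 28 of the 40, against 10.1% of all genes measured.

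The fibrillar collagens, the rope-like chains of skin, bone and scar tissue, were lower in KO at both times in all 5 genes measured. Col1a1, which encodes the alpha 1 chain of type I collagen, had a log2 level of 7.49 in KO and 8.07 in WT at 12 h, and of 8.00 in KO and 8.87 in WT at 24 h. Its partner Col1a2 was at 6.62 in KO and 7.18 in WT at 12 h, and at 7.09 in KO and 8.04 in WT at 24 h. For both genes the KO level after 24 h was close to the WT level after 12 h, and WT at 24 h stood highest. The genotype differences were -0.58 and -0.88 for Col1a1 and -0.56 and -0.95 for Col1a2, at 12 h and 24 h. At 24 h Col1a1 was 1.83-fold and Col1a2 1.94-fold lower in KO, and at 12 h both lay just under 1.5-fold.

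Col3a1, the type III chain of skin and vessels, was at 3.62 in KO and 4.09 in WT at 12 h, and at 4.28 in KO and 4.78 in WT at 24 h, with differences of -0.47 and -0.49. The type V chains, which sit inside type I fibrils, did not share 1 pattern. Col5a1 differed by -0.35 and -0.47. Col5a2 was at 4.42 in KO and 4.69 in WT at 12 h but at 4.08 in KO and 4.91 in WT at 24 h, a difference of -0.28 and then of -0.83. Col5a2 was therefore lower at 24 h than at 12 h in KO (-0.34) and higher in WT (0.22). It neighbours Col3a1 in the RefSeq gene order, with 0 protein-coding genes between them, and Col3a1 was higher at 24 h in both genotypes (0.66 in KO and 0.68 in WT).

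The type IV chains of basement membranes, the thin sheets beneath epithelia and vessels, gave unequal differences although they are encoded side by side. In the RefSeq table the starts of Col4a1 and Col4a2 lie 21 bases apart on opposite strands of chromosome 8. Col4a1 was at 4.42 in KO and 4.62 in WT at 12 h, and at 4.28 in KO and 5.11 in WT at 24 h, a difference of -0.20 and then of -0.83. Col4a2 was at 4.30 in KO and 4.31 in WT at 12 h, and at 4.67 in KO and 4.73 in WT at 24 h, so its differences of -0.01 and -0.06 were near 0. Whether the unequal values of the partners exceed error cannot be tested with 1 array per group. Nid1, which encodes nidogen, the link between laminin and type IV collagen, was at 4.52 in KO and 4.72 in WT at 12 h, and at 5.76 in KO and 6.39 in WT at 24 h. A second, dimmer Nid1 probe set gave larger genotype differences, -0.52 at 12 h and -1.16 at 24 h, against -0.21 and -0.63. Lamb1, the laminin beta 1 chain, differed by -0.20 and -0.35.

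Type VI collagen, which forms beaded microfibrils around cells, was lower in KO in all 3 chains at both times. Col6a1 was at 5.12 in KO and 5.98 in WT at 12 h, and at 5.85 in KO and 6.30 in WT at 24 h. Its difference was -0.86 at 12 h, 1.82-fold, and -0.45 at 24 h; with the mean over its 2 probe sets the 12 h value was -0.49, under 1.5-fold. Col6a2, its neighbour on chromosome 10 with 0 protein-coding genes between them, had the larger difference at 24 h instead, -0.63 against -0.41 at 12 h. Col6a3 differed by -0.29 and -0.60.

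Col8a1, a short-chain collagen of vessels and basement membranes, was at 2.98 in KO and 3.66 in WT at 12 h, and at 4.69 in KO and 4.82 in WT at 24 h. The gap of -0.67 at 12 h was -0.12 at 24 h, and both arrays at 24 h stood above both at 12 h. Col12a1, a collagen that decorates type I fibrils, had its larger gap at 24 h, with 5.28 in KO and 5.73 in WT at 12 h, and 6.12 in KO and 6.91 in WT at 24 h, or -0.46 and -0.79.

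Among the small leucine-rich proteoglycans, which bind collagen fibrils and set their spacing, the members ranged from large differences to none. Ogn (osteoglycin) had the lowest 24 h difference of all members, -1.56 or 2.95-fold. Its log2 levels were 2.21 in KO and 2.67 in WT at 12 h, and 3.25 in KO and 4.81 in WT at 24 h. The KO 12 h level is below the 40th percentile of probe sets, 2.36, and WT at 24 h stood far above the other arrays. Bgn (biglycan) was at 9.31 in KO and 9.85 in WT at 12 h, and at 10.01 in KO and 10.48 in WT at 24 h, differences of -0.54 and -0.47. Its second probe set gave -0.27 and -0.66. Dcn (decorin) differed by -0.11 and -0.28, and Lum (lumican) was below the 40th percentile in all 4 arrays, between 1.77 and 2.02.

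Of the elastic fibre genes, only Fbln2 was well above the 40th percentile. Eln, the elastin gene, lay between 2.52 and 2.96, and Mfap5, a microfibril protein gene, between 2.00 and 2.37. Fbln2, which encodes fibulin 2, was at 4.56 in KO and 5.15 in WT at 12 h, and at 5.54 in KO and 5.84 in WT at 24 h. It was 1.51-fold lower in KO at 12 h and 1.23-fold lower at 24 h.

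All 6 adhesive and matricellular genes were lower in KO at both times, with a median difference of -0.36 at 12 h and -0.74 at 24 h. Thbs1, encoding thrombospondin 1, an activator of latent TGF-beta, was at 7.93 in KO and 8.28 in WT at 12 h, and at 8.40 in KO and 9.58 in WT at 24 h. Its 24 h difference of -1.19 is 2.27-fold, and WT at 24 h stood above the other 3 arrays, which lay within 0.46 of one another. Postn, periostin, a matrix protein of remodelling tissue, was at 5.76 in KO and 6.38 in WT at 12 h, and at 6.90 in KO and 7.72 in WT at 24 h. Postn was past 1.5-fold at both times, at -0.62 and -0.82.

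Sparc, a collagen-binding glycoprotein gene, was at 6.38 in KO and 6.82 in WT at 12 h, and at 6.83 in KO and 7.67 in WT at 24 h. Its KO level at 24 h equalled its WT level at 12 h to within 0.01. Fn1, fibronectin, was at 7.91 in KO and 8.28 in WT at 12 h, and at 8.68 in KO and 9.33 in WT at 24 h. It thus followed the same order as Postn, KO 12 h lowest and WT 24 h highest, although macrophages also transcribe it. Fstl1, a secreted glycoprotein gene, differed by -0.23 and -0.56, and Thbs2 by -0.02 and -0.55.

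The genes for collagen processing and cross-linking, 4 for extracellular proteins and 1 for an intracellular chaperone, were lower in KO in all 5 members measured, and 4 of the 5 passed 1.5-fold at 24 h. Bmp1, the procollagen C-proteinase, was at 4.13 in KO and 5.05 in WT at 12 h, and at 4.75 in KO and 5.47 in WT at 24 h. Both WT arrays stood above both KO arrays, and the differences were -0.92 and -0.72. Pcolce, the enhancer of that enzyme, was at 3.94 in KO and 4.21 in WT at 12 h, and at 3.96 in KO and 4.74 in WT at 24 h. It hardly differed between the times in KO (0.02).

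Lox, lysyl oxidase, was at 7.02 in KO and 7.40 in WT at 12 h, and at 7.46 in KO and 8.17 in WT at 24 h, or -0.38 and -0.72. Loxl1 was at 5.40 in KO and 5.53 in WT at 12 h, and at 5.54 in KO and 6.18 in WT at 24 h. For Loxl1, 3 arrays lay close together and WT at 24 h stood above them, giving -0.13 and -0.64. Serpinh1, the collagen chaperone of the endoplasmic reticulum, differed by -0.36 and -0.56, under 1.5-fold at both times.

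Surface markers and signals of mesenchymal cells ranged from a more than 2-fold lower level in KO to almost no difference. Cd248 (endosialin, a stromal and pericyte surface protein) was at 2.84 in KO and 3.89 in WT at 12 h, and at 3.67 in KO and 4.53 in WT at 24 h. It had the lowest 12 h difference of all members, -1.06 or 2.08-fold, with -0.86 at 24 h, and both WT arrays stood above both KO arrays. Pdgfra, the receptor for platelet-derived growth factor that marks fibroblasts, was at 3.66 in KO and 4.29 in WT at 12 h, and at 4.31 in KO and 5.28 in WT at 24 h. Its differences of -0.62 and -0.97 are 1.54-fold and 1.96-fold.

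Pdgfrb, the sister receptor and a pericyte marker, showed no such gap: 4.85 in KO and 5.0 in WT at 12 h, and 4.92 in KO and 4.99 in WT at 24 h. Thy1, a surface marker of fibroblasts, lay between 1.90 and 2.49, with 3 of the 4 arrays below the 40th percentile, so this defining fibroblast marker was near background. Cxcl12, the chemokine by which marrow stroma retains blood stem cells, was at 4.40 in KO and 4.85 in WT at 12 h, and at 5.57 in KO and 6.08 in WT at 24 h, or -0.45 and -0.51. Gas1, a growth-arrest gene, was the 1 member above 0 by more than 0.1 at 12 h, at 2.91 in KO and 2.46 in WT, with 3.02 in KO and 3.05 in WT at 24 h. The mesenchymal transcription factor genes Prrx1 and Twist1 differed by 0.03 and 0.08 at 12 h, and by -0.22 and -0.58 at 24 h; Twist1 was near background in 3 arrays, at 2.31, 2.23 and 2.59, with 3.17 in WT at 24 h.

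**Figure D2:**
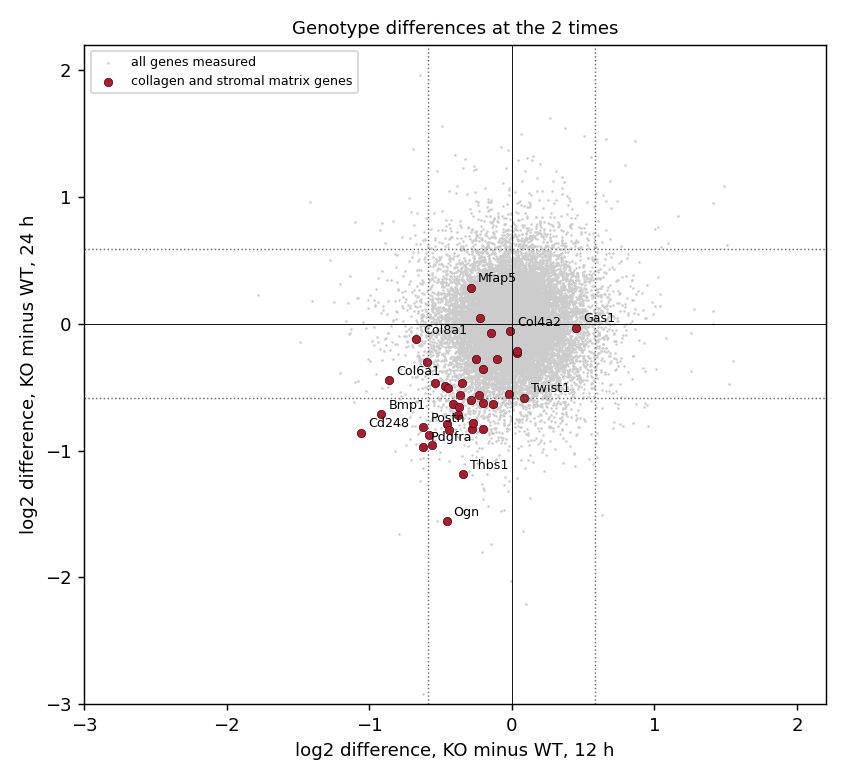
Log2 difference KO minus WT at 12 h (x axis) and at 24 h (y axis) for all 22180 genes (grey) and the 40 collagen and stromal matrix genes (red), with dotted lines at 1.5-fold. The red points lie mostly in the lower left quadrant, which holds 34 of the 40, and Cd248, Bmp1, Pdgfra and Postn lie past both lines.

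The genotype differences were larger at 24 h for most members. For 31 of the 40 (77.5%) the difference was farther below 0 at 24 h than at 12 h, with a median change of -0.26, against 49.4% and 0.0037 over all genes. The exceptions were Col6a1, Col8a1, Bgn, Lum, Mfap5, Fbln2, Bmp1, Pdgfrb and Cd248. Across the 40 members the 2 genotype differences correlated at 0.40 (Pearson) and 0.44 (Spearman), against 0.06 and 0.05 across all genes; all arrays were normalized together, and genes are not independent replicates. The SD over the members was 0.36 at 24 h and 0.29 at 12 h. Over all genes it was also larger at 24 h, at 0.29 against 0.24.

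The only fit with a residual took genotype with time as an added term over all 22180 genes (limma, Benjamini-Hochberg adjustment, 1 residual degree of freedom). In it 0 of the 40 members had an adjusted p under 0.05, as did 0% of all genes, and the lowest adjusted p of any gene was 0.866. With 1 array per cell of the design, the residual of a gene is how far its genotype gap at 24 h departs from that at 12 h. Unadjusted p-values under 0.05 with a lower level in KO were given to 26 of the 40 members (65.0%), against 2.91% of all genes, and to 0 members with a higher level. The fitted difference was -0.96 ± 0.13 (SE) for Cd248, -0.82 ± 0.13 for Bmp1, -0.80 ± 0.14 for Pdgfra, -0.72 ± 0.13 for Postn and -1.01 ± 0.28 for Ogn, each with an adjusted p of 0.866 in limma. Limma draws these SEs toward a variance shared by all genes, with 3.59 prior degrees of freedom against 1 from the gene itself. They are therefore not the measured error of each gene.

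From 12 h to 24 h most members were higher, in KO as in WT. The 24 h minus 12 h difference was above 0 in 35 of the 40 members in KO, with a median of 0.48 against 0.01 over all genes. In WT it was above 0 in 36, with a median of 0.69 against 0 over all genes. Of all 22180 genes, 11495 were above 0 in KO and 11085 in WT. By at least 1.5-fold, 16 members (40%) were higher at 24 h in KO, against 2.61% of all genes, and 26 (65.0%) in WT, against 3.58%. In both genotypes 14 members (35.0%) passed, against 0.816% of all genes. No member was lower at 24 h by 1.5-fold in either genotype. Each time difference shares arrays with both genotype differences, so these are given side by side only.

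Ogn was 2.05-fold higher at 24 h than at 12 h in KO and 4.40-fold higher in WT. The nidogen gene Nid1 was 2.37-fold higher at 24 h in KO and 3.17-fold in WT, Postn 2.21-fold in KO and 2.53-fold in WT, and Cxcl12 2.25-fold in KO and 2.35-fold in WT. Col8a1 had the larger value in KO, 3.28-fold against 2.24-fold in WT. For 31 of the 40 members the time difference was larger in WT than in KO, which is the same count as for the growing genotype difference because it is the same arithmetic on the 4 arrays.

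**Figure D3:**
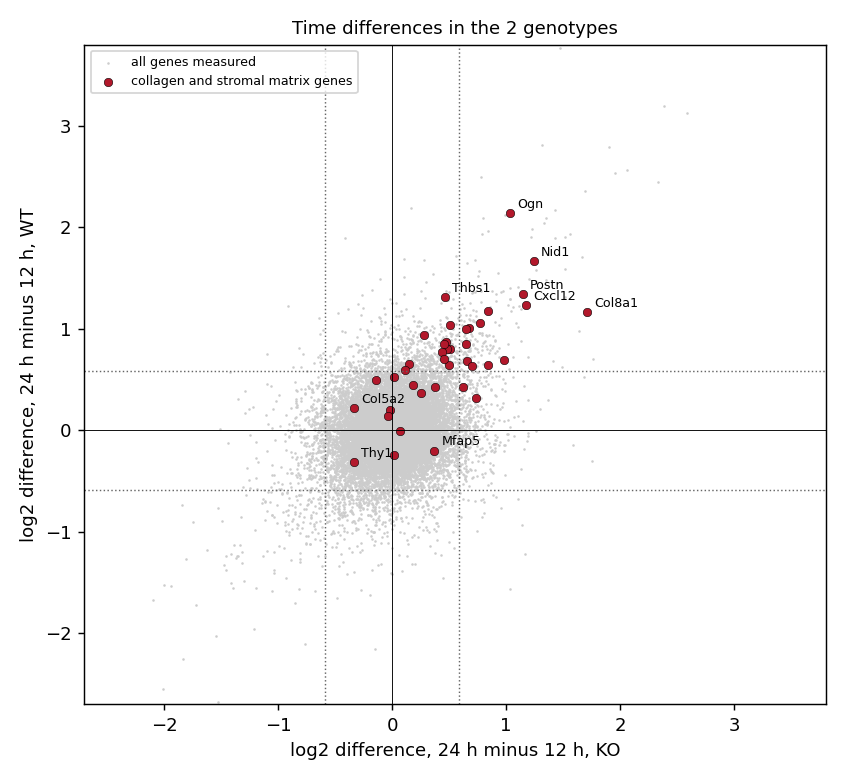
Log2 difference 24 h minus 12 h in KO (x axis) and in WT (y axis) for all 22180 genes (grey) and the 40 collagen and stromal matrix genes (red), with dotted lines at 1.5-fold. Most red points lie above 0 on both axes, with Ogn, Nid1, Postn, Cxcl12 and Col8a1 farthest out and Thy1 below 0 on both.

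The 4 arrays therefore kept a common order in most members. KO at 12 h was the lowest and WT at 24 h the highest in 28 of the 40 (70.0%), against 10.1% of all genes. Between these, KO at 24 h and WT at 12 h lay within 0.3 of each other in 22 members (55%), a smaller share than the 76.4% of all genes, with KO at 24 h above in 26 and below in 14. The matricellular genes were all on the upper side, with a median of 0.42 for KO at 24 h minus WT at 12 h, and the fibrillar collagens had a median of -0.09. Over all 22180 genes the arrays at 12 h were the most alike of any pair (Pearson 0.996), and WT at 24 h correlated least with the 12 h arrays (0.991 with KO and 0.992 with WT). The 12 h comparison, with 36 of 40 members below 0, does not use that array. It uses KO at 12 h, the lowest of the 4 arrays in 30 members. The share of all genes in which that array is the lowest was not counted. What any single array adds to the differences was not tested.

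Related genes from other lists gave unequal differences. Of 36 other matrix glycoproteins and proteoglycans measured, 24 were below 0 at 12 h and 30 at 24 h, with medians of -0.12 and -0.16; 0 at 12 h and 5 at 24 h were lower by 1.5-fold, and 1 and 0 were higher. Its genes with the highest level, Timp2 and Ecm1, differed by 0.0061 and -0.12, and by -0.05 and -0.22. The 32 other collagen chains, the cartilage and epithelial types among them, had medians of 0.06 and -0.07, with 0 lower by 1.5-fold at either time and 1 higher at 24 h, Col9a2 at 0.90; 10 of the 32 had a mean below the 40th percentile.

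The intracellular machinery of collagen folding and the enzymes related to the listed processing genes had medians near 0, with most genes below 0 at 12 h. Of the 24 measured genes on that list, 19 were below 0 at 12 h and 13 at 24 h. The medians were -0.11 and -0.06, with 0 and 3 genes lower by 1.5-fold and 0 higher. The 3 were P4ha3, Creb3l1 and Fkbp14, at -1.26, -0.86 and -0.60 at 24 h. At 12 h these were at -0.21, -0.07 and -0.29. P4hb, a subunit of prolyl 4-hydroxylase and a general folding enzyme, differed by 0.04 and 0.03, and Ppib, a cyclophilin, by 0.07 and -0.07; other secreted proteins use both. Of 15 TGF-beta ligands, receptors and targets, 13 were below 0 at 12 h and 10 at 24 h, with medians of -0.11 and -0.17. By 1.5-fold, 1 at 12 h and 3 at 24 h were lower and 0 higher. Ccn2 (connective tissue growth factor, a TGF-beta target) was lower at both times, at 6.26 in KO and 6.86 in WT at 12 h, and at 6.63 in KO and 7.38 in WT at 24 h. Tgfbi, another target, differed by -0.25 and -0.94, and the ligand gene Tgfb1 by -0.03 and 0.01.

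Most smooth muscle and pericyte markers were also lower in KO. Of the 14 genes on that list, all measured, 11 were below 0 at 12 h and 12 at 24 h, and 2 and 5 were lower by 1.5-fold with 0 higher. Acta2, smooth muscle actin, which activated fibroblasts also make, was at 8.28 in KO and 8.84 in WT at 12 h, and at 8.96 in KO and 9.65 in WT at 24 h. Tagln (transgelin) differed by -0.22 and -0.79. Summed on the linear scale, the list was 631 in KO and 843 in WT at 12 h, and 912 in KO and 1430 in WT at 24 h, a KO to WT ratio of 0.749 and 0.638. For the 40 collagen and stromal matrix genes the sums were 2282 in KO and 3099 in WT at 12 h, and 3465 in KO and 5567 in WT at 24 h, a ratio of 0.736 and 0.623. Without the brightest gene of each list, Acta2 and Bgn, the ratios were 0.831 and 0.663 for the smooth muscle list and 0.756 and 0.588 for the collagen and stromal matrix genes. No marker of the smooth muscle list had a mean below the 40th percentile, but some were dim and not lower at both times. Rgs5, Des and Myh11 had mean levels of 2.44, 2.74 and 2.83. Rgs5 differed by 0.23 and 0.11, Des by -0.18 and 0.22, and Myh11 by 0.31 and -0.20, at 12 h and 24 h.

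Markers of marrow stromal, osteoblast and fat lineage cells had sums that 1 gene carried. The sums were 299 in KO and 261 in WT at 12 h, and 281 in KO and 275 in WT at 24 h. Without Kitl, left out after its level was seen, they were 108 in KO and 123 in WT at 12 h, and 134 in KO and 168 in WT at 24 h, lower in KO at both times. The medians of all 12 were -0.01 and -0.29, with 0 and 3 lower by 1.5-fold and 0 higher. Of the 12 measured, Lepr, Sp7, Bglap, Ibsp and Adipoq had a mean below the 40th percentile. Kitl, stem cell factor, was higher in KO by 0.47 and 0.45, and Grem1, a BMP antagonist gene, was at -0.34 and -0.25.

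The macrophage markers, all 22 measured and none below the 40th percentile, checked the labelled cell type. They had medians of 0.04 at 12 h and -0.13 at 24 h, 0 and 2 of them were lower by 1.5-fold, and their sums were 38740 in KO and 38846 in WT at 12 h, and 41349 in KO and 45497 in WT at 24 h. Lyz2, lysozyme, differed by -0.21 and -0.38 and Ctss, cathepsin S, by 0.01 and 0.07. The 9 reference genes had medians of 0.03 and 0.06. Endothelial markers were summed at 228 in KO and 202 in WT at 12 h, and at 182 in KO and 131 in WT at 24 h, with 6 of 12 below the 40th percentile. Vwf and Kdr carried that sum, and without both it was 52.0 in KO and 50.1 in WT at 12 h, and 51.7 in KO and 58.5 in WT at 24 h. The endothelial medians were 0.12 and -0.05, with 9 of 12 genes below 0 at 24 h. Of the blood cell markers, 9 of 11 neutrophil, 6 of 10 B and T cell, 1 of 5 erythroid and megakaryocyte and 4 of 5 mast cell genes had a mean below it, as did 2 of 6 epithelial genes. The part of the smooth muscle markers, or of any cell type, in the differences of the collagen and stromal matrix genes was not tested.

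**Figure D4:**
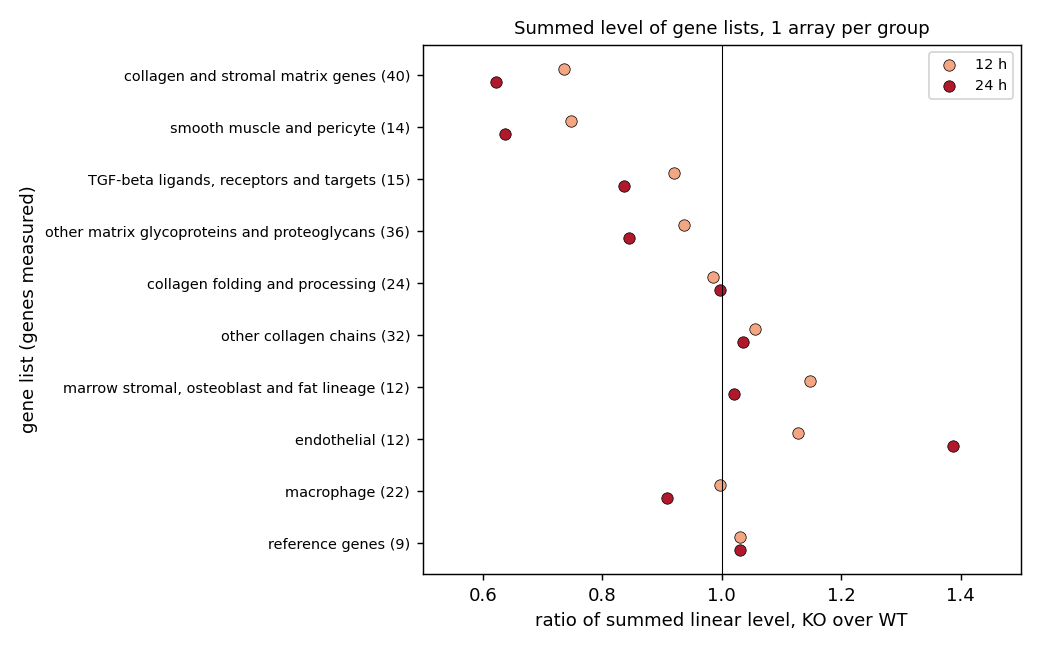
Ratio of the summed linear level in KO to that in WT (x axis) for 10 gene lists (y axis, genes measured in brackets), pale at 12 h and dark at 24 h, with a line at 1 and 1 array per group. The collagen and stromal matrix genes (0.736 and 0.623) and the smooth muscle and pericyte markers (0.749 and 0.638) lie farthest below 1, and the macrophage markers lie at 0.997 and 0.909.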

How the data were processed

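Total RNA of 4 pools was hybridised to an Affymetrix whole-transcript array after biotin labelling, per the labels' protocols. The authors deposited log2 expression per probe set made with RMA (named without a version), per the submitters' processing notes; the log2 scale was read from the values (maximum 13.2). RMA equalises the distributions of the arrays, which hides any change common to all genes. Groups came from the sample titles.

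Of 41345 probe sets, 23521 carried 1 symbol in the platform annotation and 1814 several. For the 1082 genes of 22180 with several probe sets, the one with the highest mean was used. No level filter was applied, so that every measured member counts; 37 of the 40 had a mean at or above the 40th percentile of probe sets (2.36) and 33 at or above the 60th (3.33). Differences are KO minus WT or 24 h minus 12 h. The 1.5-fold rule is 0.58 on the log2 scale. The fit was limma 3.58.1 in R 4.3.3, and the steps were tested on simulated data. Every member could be named, and so could Hilpda. From each other list, up to 4 genes past 1.5-fold on the same side at both times could be named. The 2 with the highest mean level could be named too. Other list genes are named only where they limit a sum or count of their list. The members and the 14 gene lists were chosen with earlier results of these data known. The number of arrays limits the precision. Alternatives were the mean over probe sets, loess with a span of 0.3, quantile normalization, median centring, level filters at both percentiles, 1.3-fold and 2-fold limits, and genotype alone in limma. P-values were adjusted by Benjamini-Hochberg over all genes fitted.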

Additional observations from a re-analysis of the deposited data

Results flagged for a closer look

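Some members lay on opposite sides of 0 under the same contrast, and none of these differences between times or genotypes was tested. For the genotype difference (KO minus WT, at 24 h and at 12 h) these were Lum at 0.043 and -0.22, Eln at -0.23 and 0.033, Mfap5 at 0.28 and -0.29, Gas1 at -0.030 and 0.45, Prrx1 at -0.22 and 0.034, and Twist1 at -0.58 and 0.083. All but Prrx1 had dim probe sets, with mean levels under 4. For the time difference (24 h minus 12 h, in KO and in WT) they were Col5a2 at -0.34 and 0.22, Col4a1 at -0.14 and 0.49, Col6a2 at -0.020 and 0.20, Dcn at -0.033 and 0.14, Lum at 0.021 and -0.25, Mfap5 at 0.37 and -0.20, and Pdgfrb at 0.073 and -0.0033. Col5a2, Col4a1 and Col6a2 are collagen chains whose WT 24 h array was the highest of the 4.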

How the results depend on the processing

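The median genotype and time differences of the members kept their sign under both level filters, the mean over probe sets, median centring, quantile normalization and loess. Across these, the median was between -0.37 and -0.35 at 12 h and between -0.63 and -0.55 at 24 h. The count lower by 1.5-fold ran from 6 to 8 at 12 h and from 18 to 21 at 24 h. The share of all genes in the same settings ran from 0.91% to 1.55% at 12 h and from 2.58% to 3.52% at 24 h. The fold rule changed the counts most. At 1.3-fold 17 of the 40 members were lower at 12 h, against 5.54% of all genes, and 15 at both times, against 0.92%. By the same rule 1 member (Gas1) was higher at 12 h. At 2-fold 1 member was lower at 12 h, 2 at 24 h and 0 at both times, against 0.12%, 0.29% and 0% of all genes. Of 320 single genotype differences recomputed, 0 changed sign where past 1.5-fold, but most could not have. The largest shifts were 0.02 under median centring, 0.04 under quantile normalization and 0.05 under loess. The mean over probe sets changes only members with several. Under it 1 difference moved by more than the SD over all genes: Col6a1 at 12 h was -0.49. In limma 0 members had an adjusted p under 0.05 in every fit run. With genotype alone 6 of the 40 members had an unadjusted p under 0.05, as did 838 of all 22180 genes. With time as an added term 26 of the 40 did, and 1231 of all genes. No array could be left out, since each group is 1 array. No paired analysis of single samples was possible because each array holds pooled RNA. The labels also carry no replicate numbers. Fitting time beside genotype in limma does compare KO with WT within each time.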

Other observations

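The probe sets left out of the counts also carried values. Both probe sets annotated to Loxl2 and a predicted gene lay lower in KO: one was at 5.34 in KO and 5.79 in WT at 12 h, and at 5.70 in KO and 6.21 in WT at 24 h, and the other at 4.74 in KO and 5.03 in WT at 12 h, and at 4.33 in KO and 5.55 in WT at 24 h. The second gave -0.29 and -1.22, and was the only one of the 2 to be lower at 24 h than at 12 h in KO (-0.40). A probe set shared by Col6a1 with a ribosomal protein gene and other symbols was near 0, at 0.04 and -0.05. Among members with 2 probe sets of their own, the dimmer sets gave -0.51 and -0.51 for Col1a2, and 0.08 and -0.13 for Col5a1, whose dimmer set lay near background with a mean level of 2.37.

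Dcn and Lum are neighbours on chromosome 10 with 0 protein-coding genes between them, and their probe sets lay differently against background: Dcn was between 4.92 and 5.20 in the 4 arrays, whereas Lum was under the 40th percentile in each. The 32 members with a mean level of 4 or more had median genotype differences of -0.37 at 12 h and -0.62 at 24 h, and the 8 dimmer ones of -0.24 and -0.25. Across members, mean level and the 24 h difference correlated at -0.41 (Pearson, n = 40), against 0.02 across all genes, a description with the same 4 arrays on both axes.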
